A study of Caenorhabditis elegans with 4 samples.

Results

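Ageing on the standard laboratory food was described here from RNA of whole Caenorhabditis elegans of the N2 wild type that ate Escherichia coli OP50 and were collected at day 13 or at day 4 of adulthood. Each age had 1 library, made from a large pooled population of worms that were synchronized as young larvae and washed over a mesh during adulthood. No mutation or transgene is named for either age, and the study's general methods give plates with FUDR, a drug that stops the production of progeny, for its transcriptomes of young and old worms, although its account of this feeding experiment does not repeat it. Libraries were made from poly(A) RNA and read at the 3′ ends of transcripts. The genes described were those with 10 or more reads in either OP50 library, 8906 of the 17096 genes in the table, each taken from the transcript line with most reads. The series also holds 1 library for each age on Bacillus subtilis PY79. These libraries entered the scaling and the choice of transcript lines. Their values are otherwise only set beside those on OP50.

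Adult hermaphrodites first use the sperm they stored as larvae and then keep growing oocytes, for which the intestine makes yolk. The intestine is also the organ of digestion, of fat storage and of defence against the bacteria that are eaten, and most of its genes depend on ELT-2, a GATA transcription factor of gut cells. Body muscle, the pharynx and the cuticle of the worm lose structure in old age, and bacteria fill the gut of many old worms.

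The libraries held 28552961 reads at day 13 and 28650595 at day 4 over the chosen transcripts, and 7874 genes had 10 or more reads at day 13, against 8266 at day 4. With 1 library an age, no difference given here has a replicate check. A gene was called higher or lower at day 13 when the scaled reads of the ages were 2-fold or more apart and the ratio's exact 95% interval, by Clopper-Pearson and in parentheses after each fold, lay on one side of 1. These intervals cover counting error only, and they compare the libraries, not the ages. Reads were scaled by TMM, a method that sets most genes to no difference, so every fold is relative to the bulk of genes. In RNA of whole worms, fewer cells of a type and less RNA per cell cannot be told apart.

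Of the 8906 genes, 1318 (14.8%) were higher at day 13 and 1700 (19.1%) were lower, and these shares are the background, with TMM, for every gene group below. When total reads replaced TMM as the scale, 841 genes were higher and 2245 were lower, so that 27.3% of the called genes were higher, against 43.7% with TMM. For counts given with total reads the background is therefore 841 higher and 2245 lower of the 8906 genes. The log2 ratio of the median gene was 0.02 by TMM and -0.29 by total reads, a shift of -0.30. The quartiles of the log2 ratio lay at -0.78 and 0.64. Differences of 10-fold or more were seen in 194 genes that were higher and 252 that were lower. There were 36 genes with 10 or more reads at day 13 and 0 at day 4, and 99 with 0 at day 13 and 10 or more at day 4. Across the 7234 genes with 10 or more reads at both ages the log2 levels correlated with r = 0.912, a description across genes, which are not independent replicates.

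**Figure D1:**
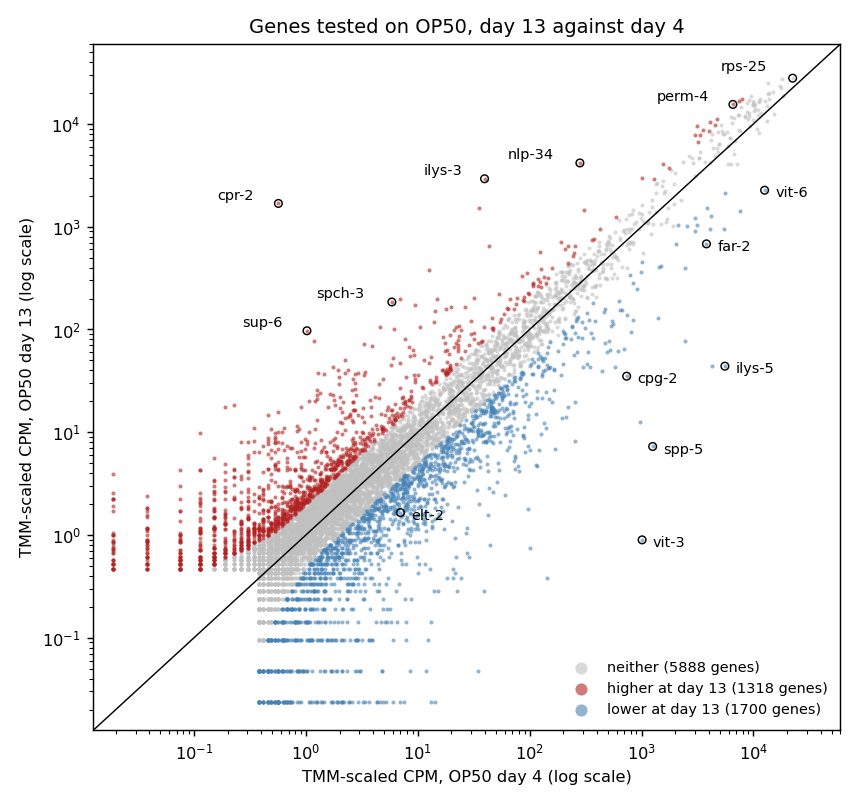
Each point is 1 of 8906 genes, with its TMM-scaled reads at day 13 (CPM) on the vertical axis and at day 4 on the horizontal axis, both on log scales, with 0 reads drawn as 0.5 read. Red points are the 1318 genes called higher at day 13 and blue points the 1700 called lower. Circles mark 14 genes labelled by name, with cpr-2 far above the line of equal levels and vit-3 far below it.

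The yolk proteins, lipoproteins that carry fat to the oocytes, were lower at day 13 in all 6 genes, with a median log2 ratio of -3.66. vit-6 (K07H8.6) had 48042 reads at day 13 and 332862 reads at day 4, 5.56-fold lower (5.51 to 5.61). vit-4 (F59D8.2) had 1628 reads at day 13 and 64004 reads at day 4 and was 31.6-fold lower (30.0 to 33.2), and vit-1 (K09F5.2) had 101 reads at day 13 against 2996 at day 4, 23.8-fold lower (19.5 to 29.3). The remaining members were vit-5, with 2617 reads at day 13 against 22060 at day 4, vit-2, with 30023 reads at day 13 against 202240 at day 4, and vit-3, with 19 reads at day 13 against 26741 at day 4. At both ages vit-6 and vit-2 held most of the reads of the family. All 6 genes together took 0.289% of the reads at day 13 and 2.27% at day 4. The vit-3, vit-4 and vit-5 genes are close copies of each other, so the split of reads between them is uncertain, and genes on the other strand overlap vit-2, vit-3 and vit-4.

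Genes of the oocyte and eggshell did not move together. Of 26 genes, 8 were lower, 1 was higher and 17 were neither, with a median of -0.08. cpg-2 (B0280.5), a chondroitin proteoglycan of the eggshell, had 744 reads at day 13 and 19453 reads at day 4, 21.0-fold lower (19.5 to 22.6). egg-1 (B0244.8), an oocyte surface protein needed for sperm to enter, had 141 reads at day 13 and 1664 reads at day 4, 9.47-fold lower (7.97 to 11.3). chs-1 (T25G3.2), the chitin synthase that builds the shell, had 205 reads at day 13 against 1389 at day 4, 5.44-fold lower (4.69 to 6.33), and rme-2, the yolk receptor of oocytes, had 400 reads at day 13 against 1759 at day 4, 3.53-fold lower (3.16 to 3.94). The gene of the group with most reads went the other way. perm-4 (C44B12.5), an eggshell protein, had 328484 reads at day 13 and 173264 reads at day 4, 2.36-fold higher (2.35 to 2.38), and was not called with total reads. Its partner perm-2 had 129406 reads at day 13 against 157261 at day 4 and was neither higher nor lower. The list also held spe-41, a sperm gene, and lin-35, a chromatin repressor, both called lower. The sources used here do not say which strand was counted, so reads of overlapping genes are uncertain: chs-1 overlaps another annotated gene on the same strand, and egg-1, perm-2 and lin-35 overlap genes on the other.

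Germline regulators differed little between the ages. Of 45 RNA-binding and germ granule genes, 3 were higher and 4 lower, and the median was 0.02 with TMM and -0.29 with total reads. cey-2 (F46F11.2), a Y-box RNA-binding protein, had 9717 reads at day 13 and 26548 reads at day 4, 2.19-fold lower (2.14 to 2.24), and ifet-1 (F56F3.1), a translational repressor, had 1732 reads at day 13 against 7725 at day 4, 3.58-fold lower (3.40 to 3.77). The PUF protein puf-11 (Y73B6BL.38) was also lower, with 631 reads at day 13 against 2441 at day 4. The PUF proteins that keep germline stem cells dividing went the other way, fbf-1 with 35 reads at day 13 and 16 reads at day 4 and fbf-2 with 42 reads at day 13 and 20 reads at day 4. Among 37 genes of meiosis 5 were higher and 3 lower, or 3 higher and 4 lower with total reads. The HORMA-domain axis protein htp-1 (F41H10.10) had 68 reads at day 13 against 522 at day 4, 6.16-fold lower (4.78 to 8.05), while syp-1 (F26D2.2), of the central part of the synaptonemal complex, had 3321 reads at day 13 against 1692 at day 4, 2.45-fold higher (2.31 to 2.59), a call that total-read scaling ended. him-1 (F28B3.7), a cohesin subunit, and brc-1 (C36A4.8), the counterpart of human BRCA1, were 4.55-fold lower (3.35 to 6.30) and 3.90-fold lower (2.70 to 5.78). Among 61 genes of the cell cycle and DNA replication 4 were higher and 7 lower. The medians of the meiosis and cell cycle lists, 0.23 and 0.24, became -0.07 and -0.07 with total reads. Other annotated genes overlap syp-1 on the same strand and fbf-1 and brc-1 on the other.

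Of the 63 gene lists counted, the major sperm proteins had the most members higher at day 13. Of 33 major sperm proteins and their relatives, which form the cytoskeleton of crawling sperm, 30 were higher, 1 was lower and 2 were neither, with a median log2 ratio of 2.75. They took 0.0491% of the reads at day 13 and 0.00833% at day 4, so the group was a small part of the RNA at both ages. ssp-16 (T27A3.3) had 1070 reads at day 13 and 59 reads at day 4, 22.6-fold higher (17.4 to 29.9), and ssp-31 (ZK1225.6) had 309 reads at day 13 and 12 reads at day 4, 32.1-fold higher (18.1 to 62.8). ssp-37 (W02D9.5) was the member that was lower, with 63 reads at day 13 and 168 reads at day 4. Among 31 other sperm genes 20 were higher and 4 lower, with a median of 2.21. The sperm chromatin proteins led this group. spch-3 (T27A3.4) had 3925 reads at day 13 and 155 reads at day 4, 31.5-fold higher (26.9 to 37.3). spch-2 (C10G11.9) had 921 reads at day 13 and 46 reads at day 4, 24.9-fold higher (18.5 to 34.3). spch-1 (C04G2.8) had 3694 reads at day 13 and 250 reads at day 4, 18.4-fold higher (16.2 to 21.0). The member with most reads was nspd-1 (ZK484.8), of a nematode-specific peptide family found in sperm, with 4152 reads at day 13 and 395 reads at day 4, 13.1-fold higher (11.8 to 14.6). Among those that were lower, all with few reads, nspe-1 had 1 read at day 13 against 22 at day 4, try-5 had 1 read at day 13 against 10 at day 4 and spe-41 had 3 reads at day 13 against 21 at day 4. Many of these genes are nearly identical copies. The study normalized to reads mapped to a unique place, and whether the counts used here hold only such reads is not stated, so reads of single copies are uncertain.

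Markers of other cell types were read beside the sperm genes. The 4 sperm markers summed to 5705 reads at day 13 and 425 at day 4. The 4 germline markers summed to 17189 reads at day 13 and 16736 at day 4, and the 5 oocyte markers to 1523 at day 13 and 21845 at day 4, most of which was cpg-2. The 6 embryo markers found in the table summed to 53 reads at day 13 and 89 at day 4, with end-1, end-3, pes-10 and tbx-37 at 5 reads or fewer at each age. Whether the makeup of the pooled worms bears on the sperm genes was not tested.

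**Figure D2:**
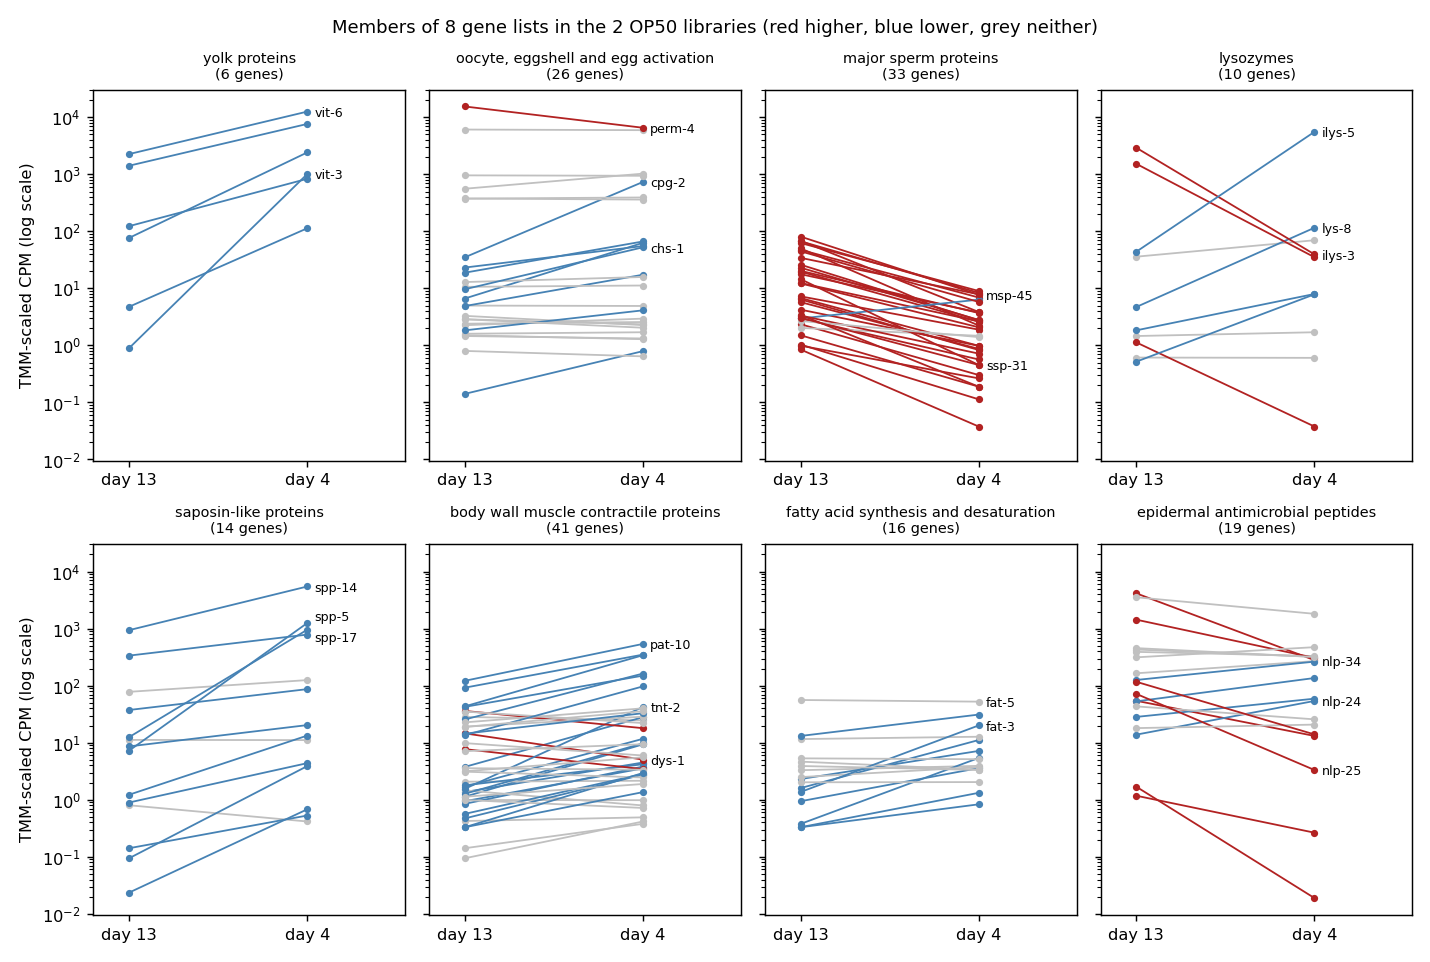
Each line is 1 gene of the list named above the panel, with its TMM-scaled CPM on a log scale at day 13 on the left and day 4 on the right (0 reads drawn as 0.5 read). Red lines are genes called higher at day 13, blue lines genes called lower and grey lines neither, so that all 6 yolk genes are blue and 30 of 33 major sperm proteins are red, while lysozymes hold both colours.

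The intestine was checked with its markers first. elt-2 (C33D3.1) itself had 35 reads at day 13 and 185 reads at day 4, 4.24-fold lower (2.94 to 6.28), and on PY79, at lower depth, 7 reads at day 13 and 10 at day 4. Of 6 defining gut markers, elt-2 and ges-1, a gut esterase, were lower, ifb-2, act-5 and vha-6 were neither (vha-6 was called lower with total reads), and pept-1, with 4 reads at day 13 against 7 at day 4, was under the minimum. A longer list of 14 gut genes had 0 higher and 3 lower, with a median of -0.37. The metallothionein mtl-2 (T08G5.10), with 113697 reads at day 13 and 88463 reads at day 4, held most of its reads and was called neither, and the ferritin ftn-2 (D1037.3) was 2.43-fold lower (2.28 to 2.61). That list also held cup-4, a gene of coelomocytes, with 5 reads at day 13 against 14 at day 4.

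Proteases known from the gut lumen and the lysosome, and saposin-like proteins, were lower in most members. Of 16 cathepsins and aspartyl proteases 11 were lower and 1 was higher, with a median of -1.50. cpr-6 (C25B8.3), a cathepsin B, had 1322 reads at day 13 and 16132 reads at day 4, 9.79-fold lower (9.26 to 10.4), and asp-4 (R12H7.2), a cathepsin D, had 33 reads at day 13 against 262 at day 4, 6.37-fold lower (4.43 to 9.45). The exception was another cathepsin B, cpr-2 (F36D3.9), with 35704 reads at day 13 and 15 reads at day 4, the largest ratio of any gene with 100 or more reads. Saposin-like proteins, small proteins that act on bacterial membranes, were lower in 11 of 14 genes and higher in 0, with a median of -1.94. spp-14 (K09F5.3) held most of the reads of this family, with 19988 reads at day 13 and 145242 reads at day 4, 5.83-fold lower (5.75 to 5.92). The saposin-like spp-12 (T22G5.7) had 2 reads at day 13 against 103 at day 4, 41.3-fold lower (11.2 to 346). On the family sum, saposin-like genes took 0.107% of the reads at day 13 and 0.809% at day 4. A gene on the other strand overlaps asp-4.

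Lysozymes, which cut bacterial cell walls, split in opposite directions. Of 10 genes 3 were higher and 4 lower. Among invertebrate-type lysozymes ilys-5 (F22A3.6) had 931 reads at day 13 and 146953 reads at day 4, 127-fold lower, while ilys-2 (C45G7.2) had 32479 reads at day 13 and 931 reads at day 4, 43.5-fold higher (40.7 to 46.4), and ilys-3 (C45G7.3) had 62087 reads at day 13 and 1045 reads at day 4, 74.0-fold higher (69.6 to 78.8). Most lysozyme reads came from ilys-3 and ilys-2 at day 13 and from ilys-5 at day 4, and the whole list took 0.338% of the reads at day 13 and 0.539% at day 4. A further member, ilys-6 (W03D2.7), had 24 reads at day 13 against 1 at day 4. The protist-type lysozymes that were called were all lower. lys-8 (C17G10.5) had 100 reads at day 13 and 3058 reads at day 4, 24.5-fold lower (20.1 to 30.3), and lys-2 (Y22F5A.5) had 11 reads at day 13 and 208 reads at day 4, 15.2-fold lower (8.31 to 30.9), and lys-1 had 39 reads at day 13 against 211 at day 4. lys-7 had 763 reads at day 13 against 1847 at day 4 and lys-4 had 31 reads at day 13 against 45 at day 4, and both were neither with TMM, while lys-7 was called lower with total reads. Annotated genes overlap lys-4 on the same strand and lys-8 on the other.

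C-type lectins, secreted proteins that bind carbohydrates and of which many respond to bacteria, numbered 58 of 146 listed, with 5 higher and 30 lower and a median of -1.28. clec-85 (Y54G2A.6) had most reads, with 914 reads at day 13 and 15374 reads at day 4, 13.5-fold lower (12.6 to 14.4). clec-65 (F35C5.8) had 6 reads at day 13 and 403 reads at day 4, 53.9-fold lower (24.6 to 148), and clec-96 (ZK39.5) had 0 reads at day 13 and 58 reads at day 4, at least 15.5-fold lower. A lectin in the other direction, clec-147 (C04H5.2), had 2241 reads at day 13 and 580 reads at day 4, 4.81-fold higher (4.39 to 5.28). Lower bounds are computed against a floor of 3 reads per library. Of 15 genes known from infection 11 were lower, with a median of -2.03 (-2.01 with genes at 0 reads set to their bound). The thaumatin-like thn-2 (F28D1.5) had 1270 reads at day 13 and 12957 reads at day 4, 8.19-fold lower (7.73 to 8.68), and hpo-6 (Y41D4B.16) had 14 reads at day 13 and 722 reads at day 4, 41.4-fold lower (24.5 to 76.1). The 2 that were higher were irg-1 (C07G3.2), with 91 reads at day 13 and 25 reads at day 4, and irg-2 (C49G7.5), with 39 reads at day 13 and 7 reads at day 4. The bZIP factor zip-2 (K02F3.4), which is needed for the induction of irg-1 in infected worms, had 765 reads at day 13 and 245 reads at day 4, 3.89-fold higher (3.36 to 4.51). Annotated genes overlap clec-85 and zip-2 on the same strand and clec-147 on the other.

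Genes that respond to ELT-2 were taken from the study's classification of larvae with elt-2 RNAi, which did not use these libraries. In newly hatched larvae the study found mostly genes that were lower with elt-2 RNAi, and a few that were higher. Only class membership was used here, not the direction of a gene in those larvae. Over its 3 classes 147 genes were counted here, of which 8 (5.44%) were higher and 72 (49.0%) were lower at day 13, with a median log2 ratio of -1.03, against 1628 lower of the 8759 other genes (18.6%) with a median of 0.03, or -1.35 against -0.28 with total reads. The class that responds at both larval stages, called general intestinal function, had 2 higher and 32 lower of 63 and a median of -1.21. This class took 0.800% of the reads at day 13 and 0.869% at day 4, and its member with most reads, mtl-2, was neither. Among its lower members was hacd-1 (R09B5.6), a fatty acid oxidation enzyme, with 0 reads at day 13 and 86 reads at day 4, at least 23.0-fold lower. The 2 that were higher were the lysozyme ilys-2, with 32479 reads at day 13 and 931 reads at day 4, and W07B8.4, with 46 reads at day 13 and 3 reads at day 4. The class of intestinal establishment, which responds in newly hatched larvae, had 6 higher and 26 lower of 53 and a median of -0.91. It took 2.37% of the reads at day 13 and 2.89% at day 4, and its member with most reads, the ribosomal protein gene rpl-21, was neither. Here lec-9 (C16H3.2), a galectin, had 290 reads at day 13 and 5117 reads at day 4, 14.2-fold lower, and F01D5.5 had 0 reads at day 13 and 160 reads at day 4, at least 42.8-fold lower. In the other direction, nlp-25 (Y43F8C.1), also counted among the epidermal peptides below, had 1528 reads at day 13 and 88 reads at day 4, 21.6-fold higher (17.4 to 27.1). The cystathionine beta-synthase cbs-2 (F54A3.4) had 413 reads at day 13 and 70 reads at day 4, 7.35-fold higher (5.69 to 9.61), and C34F11.8 had 2113 reads at day 13 and 645 reads at day 4, 4.08-fold higher (3.74 to 4.46). The class of adult function, which responds in late larvae, had 0 higher and 14 lower of 31 and a median of -0.88. It took 0.0138% of the reads at day 13 and 0.0344% at day 4. hmit-1.1 (Y51A2D.4), a transporter of myo-inositol, had 6 reads at day 13 and 589 reads at day 4, 78.8-fold lower (36.0 to 216). The genes of these classes were also counted in other lists where they belong to them, such as those of lectins, proteases, saposins and neuropeptides. The lists are therefore not independent. Whether the level of elt-2 bears on these genes at day 13 was not tested. Genes on the other strand overlap cbs-2 and C34F11.8.

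**Figure D3:**
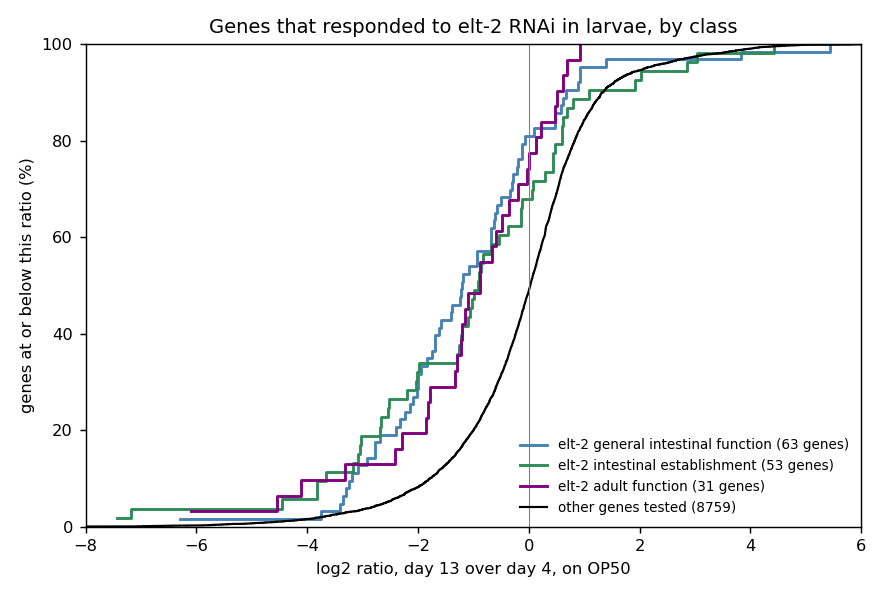
For each class of genes that responded to elt-2 RNAi in larvae, the line gives the share of its genes (vertical axis, %) at or below a log2 ratio of day 13 over day 4 on OP50 (horizontal axis). The black line holds the other 8759 genes tested, with a median of 0.03, and the 3 coloured lines lie to its left over most of their range, with medians of -1.21, -0.91 and -0.88.

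Enzymes that make fatty acids were lower in 8 of 16 genes and higher in 0, with a median of -0.90. fat-3 (W08D2.4), a desaturase on the path to long polyunsaturated fatty acids, had 29 reads at day 13 and 532 reads at day 4, 14.7-fold lower (10.1 to 22.2). elo-6 (F41H10.8), an elongase for branched-chain fatty acids, had 34 reads at day 13 and 295 reads at day 4, 6.96-fold lower (4.87 to 10.2), and acs-1 (F46E10.1), an acyl-CoA synthetase, had 8 reads at day 13 and 143 reads at day 4, 14.3-fold lower (7.09 to 33.9). The desaturase with most reads, fat-5 (W06D12.3), had 1192 reads at day 13 against 1389 at day 4 and was neither. Of 27 genes of fatty acid breakdown 2 were higher and 3 lower, or 1 higher and 5 lower with total reads. ech-7 (Y105E8A.4), an enoyl-CoA hydratase, was 7.63-fold lower (6.79 to 8.60), with 316 reads at day 13 and 3004 reads at day 4. Among 19 lipases and lipid-binding proteins 8 were lower and 2 higher. far-2 (F02A9.3), which binds fatty acids and retinol, had more reads than any other member, with 14431 reads at day 13 and 100568 reads at day 4, 5.59-fold lower (5.50 to 5.69), and lbp-3 (F40F4.4), a fatty acid-binding protein, had 106 reads at day 13 and 1371 reads at day 4, 10.4-fold lower (8.52 to 12.8). The lipase of fat droplets, atgl-1 (C05D11.7), had 74 reads at day 13 and 37 reads at day 4, 2.49-fold higher (1.66 to 3.80), and far-4 (F15B9.2) had 267 reads at day 13 and 87 reads at day 4, 3.82-fold higher (2.99 to 4.93). In the propionate and methionine pathways 4 genes were higher and 6 lower of 24, with acdh-1 (C55B7.4), of the propionate shunt, at 0 reads at day 13 and 30 reads at day 4, and gldc-1 (R12C12.1), of glycine cleavage, at 0 reads at day 13 and 38 reads at day 4. Overlapping genes are annotated for acs-1 and ech-7 on the same strand and for elo-6 and fat-5 on the other.

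Central energy metabolism was close to the bulk of genes. Of 45 respiratory chain genes 2 were higher and 3 lower, of 22 glycolysis genes 1 and 2, and of 26 genes of the citrate cycle, glyoxylate shunt and sugar synthesis 1 and 2. Their medians of 0.16, 0.12 and 0.15 turned to -0.16, -0.19 and -0.16 with total reads. Subunits of cytochrome c oxidase differed among themselves. cox-6A (F54D8.2) had 908 reads at day 13 and 7974 reads at day 4, 7.05-fold lower (6.58 to 7.56), and cox-5B (F26E4.9) had 1759 reads at day 13 and 9795 reads at day 4, 4.47-fold lower (4.25 to 4.70), while cox-4 (W09C5.8) had 26184 reads at day 13 and 15627 reads at day 4, 2.09-fold higher (2.05 to 2.13), which was not called with total reads. pck-1 (W05G11.6), the first enzyme of sugar synthesis from the citrate cycle, had 406 reads at day 13 and 2700 reads at day 4, 5.34-fold lower (4.81 to 5.94), and mdh-1 (F46E10.10), a malate dehydrogenase, had 744 reads at day 13 and 3401 reads at day 4, 3.67-fold lower (3.39 to 3.98). ldh-1 (F13D12.2), lactate dehydrogenase, was 5.49-fold lower (3.92 to 7.90). pyc-1 (D2023.2), pyruvate carboxylase, was higher, with 117 reads at day 13 and 51 reads at day 4, 2.86-fold higher (2.04 to 4.05). Trehalose and glycogen genes had 2 higher and 3 lower of 14. The calls were 0 higher and 5 lower with total reads for the respiratory chain, 0 higher and 5 lower with total reads for glycolysis and 1 higher and 4 lower with total reads for the citrate cycle list. Another gene overlaps cox-5B on the same strand.

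Body wall muscle had 20 genes lower and 3 higher of 41 (1 higher and 25 lower with total reads), with a median of -1.20, and took 0.0437% of the reads at day 13 and 0.186% at day 4. All 5 marker genes of body muscle were lower: the myosin unc-54 with 80 reads at day 13 against 742 at day 4, the myosin myo-3 with 12 reads at day 13 against 75 at day 4, paramyosin unc-15 with 27 reads at day 13 against 258 at day 4, twitchin unc-22 with 7 reads at day 13 against 36 at day 4 and the light chain mlc-1 with 38 reads at day 13 against 111 at day 4. tnt-2 (F53A9.10), a troponin T, had 33 reads at day 13 and 1122 reads at day 4, 27.3-fold lower (19.3 to 39.8), and clik-1 (T25F10.6), a calponin-like protein, had 288 reads at day 13 and 2574 reads at day 4, 7.17-fold lower (6.35 to 8.13). The genes called higher encode proteins of the muscle membrane. dys-1 (F15D3.1), the worm dystrophin, had 310 reads at day 13 and 134 reads at day 4, 2.88-fold higher (2.35 to 3.56), dyb-1 (F47G6.1), its partner dystrobrevin, had 164 reads at day 13 and 91 reads at day 4, 2.25-fold higher (1.73 to 2.93), and sca-1 (K11D9.2), the calcium pump of the sarcoplasmic reticulum, had 766 reads at day 13 and 476 reads at day 4, just past the 2-fold minimum. The calls of dyb-1 and sca-1 ended with total reads. The 4 markers of pharyngeal muscle differed among themselves. The myosin myo-2 (T18D3.4) had 43 reads at day 13 against 21 at day 4, the myosin myo-1 (R06C7.10) had 18 reads at day 13 against 8 at day 4, and the troponin C tnc-2 (ZK673.7) had 20 reads at day 13 against 7 at day 4, all called higher with TMM, while with total reads the call of myo-1 ended. The marker with most reads, the troponin I tni-4, had 44 reads at day 13 against 94 at day 4, 1.71-fold lower, and was neither with TMM and called lower with total reads. The whole pharynx list had 3 higher and 6 lower of 14, with phat-6 (T10B10.6), of the pharyngeal glands, at 104 reads at day 13 against 433 at day 4 and 3.34-fold lower (2.69 to 4.18). Annotated genes overlap myo-3, unc-22 and tni-4 on the same strand and mlc-1, clik-1, dys-1, dyb-1, sca-1, myo-1 and tnc-2 on the other.

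Basement membrane genes were lower in 5 of 11 and higher in 0, with a median of -0.90. Of the chains of type IV collagen, emb-9 (K04H4.1) had 18 reads at day 13 and 197 reads at day 4, 8.78-fold lower (5.42 to 15.1), and let-2 (F01G12.5) had 25 reads at day 13 and 175 reads at day 4, 5.62-fold lower (3.68 to 8.92). ost-1 (C44B12.2), the worm SPARC, which binds that collagen, had 521 reads at day 13 and 3674 reads at day 4, 5.66-fold lower (5.16 to 6.22). let-2 overlaps other annotated genes on both strands.

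Cuticle collagens, the proteins of the exoskeleton, were 35 lower and 18 higher of 108 genes (11 higher and 45 lower with total reads), and the list took 0.605% of the reads at day 13 and 2.08% at day 4. col-181 (W03G11.1) had most reads, with 26963 reads at day 13 and 110463 reads at day 4, 3.29-fold lower (3.24 to 3.33). col-43 (ZC513.8) had 8 reads at day 13 and 551 reads at day 4, 55.3-fold lower (27.9 to 129). Next came col-20 (F11G11.11), which had 141 reads at day 13 and 3230 reads at day 4, 18.4-fold lower (15.5 to 21.9). Collagens in the other direction had fewer reads, with col-38 (F54C9.4) at 696 reads at day 13 and 128 reads at day 4, 6.77-fold higher (5.60 to 8.25), and col-89 (F17C8.2) at 361 reads at day 13 and 85 reads at day 4, 5.29-fold higher (4.17 to 6.78). The body shape collagen dpy-5 (F27C1.8) was 5.85-fold higher (3.80 to 9.31). Among 5 epidermis markers col-19, with 6711 reads at day 13 against 16114 at day 4, rol-6, with 16 reads at day 13 against 14 at day 4, and nlp-29, with 8318 reads at day 13 against 8764 at day 4, were neither with TMM, while col-19 was called lower with total reads, and dpy-7 and wrt-2 were under the minimum. Hedgehog-related and patched-related genes had 2 higher and 7 lower of 18, with grd-5 (F41E6.2) at 0 reads at day 13 and 78 reads at day 4 and grd-13 (W05E7.3) at 0 reads at day 13 and 46 reads at day 4. Genes on the other strand overlap col-89 and col-19.

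Antimicrobial peptides of the epidermis were higher in 7 and lower in 4 of 19 genes, with a median of 0.52, and took 0.851% of the reads at day 13 and 0.435% at day 4. nlp-34 (B0213.17) had 88478 reads at day 13 and 7431 reads at day 4, 14.8-fold higher (14.5 to 15.2), and its neighbour in this gene cluster nlp-27 (B0213.2) had 75491 reads at day 13 and 48173 reads at day 4 and was neither with TMM. The caenacins split too. cnc-5 (R09B5.10) had 36 reads at day 13 and 0 reads at day 4 and was higher, while cnc-2 (R09B5.3) had 2674 reads at day 13 and 6990 reads at day 4, 2.10-fold lower (2.01 to 2.19). The peptide gene nlp-24 (F35B12.7) had 294 reads at day 13 against 1429 at day 4, 3.90-fold lower (3.44 to 4.44), and nlp-33 (T19C4.7) had 1128 reads at day 13 against 3607 at day 4, 2.57-fold lower (2.40 to 2.75). Transthyretin-related proteins, secreted proteins of several tissues, were 2 higher and 12 lower of 32, with ttr-44 (C56A3.2) at 4 reads at day 13 and 129 reads at day 4, 25.9-fold lower (9.87 to 96.4), and ttr-34 (F09A5.9) at 104 reads at day 13 and 24 reads at day 4, 5.40-fold higher (3.44 to 8.80). Genes on the other strand overlap nlp-24 and ttr-44.

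Of the genes of neurons, the markers snb-1, unc-119 and egl-3 were neither, with 234 reads at day 13 against 159 at day 4 for snb-1, 14 reads at day 13 against 19 at day 4 for unc-119 and 38 reads at day 13 against 38 at day 4 for egl-3. Of 53 neuropeptide genes 6 were higher and 13 lower (3 higher and 17 lower with total reads), with a median of -0.42. nlp-36 (B0464.3) had 157 reads at day 13 and 2572 reads at day 4, 13.1-fold lower (11.2 to 15.5), nlp-4 (F59C6.6) had 1 read at day 13 and 80 reads at day 4, 64.2-fold lower (11.2 to 2567), and nlp-56 (Y57G11C.45) had 3 reads at day 13 and 112 reads at day 4, 30.0-fold lower (9.99 to 147). The gene nlp-56 also belongs to the elt-2 class of adult function. In the other direction the insulin-like peptide ins-20 (ZK84.7) had 16 reads at day 13 and 0 reads at day 4, at least 6.64-fold higher. flp-15 (ZK525.1), an FMRFamide-like peptide gene, had 684 reads at day 13 and 383 reads at day 4, 2.23-fold higher (1.96 to 2.53), not called with total reads. Genes of neurotransmission had 2 higher and 5 lower of 22, or 0 higher and 6 lower with total reads, with mec-17 (F57H12.7), a tubulin acetyltransferase of touch neurons, at 45 reads at day 13 and 150 reads at day 4, 2.68-fold lower (1.91 to 3.82). Genes on the other strand overlap nlp-36, nlp-56 and mec-17.

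Cytosolic ribosomal proteins took 64.4% of all reads at day 13 and 56.7% at day 4. Few single genes passed 2-fold: of 31 small-subunit genes 5 were higher and 1 lower, and of 49 large-subunit genes 5 were higher and 0 lower. The calls were 2 higher and 1 lower with total reads for the small subunit and 2 higher and 0 lower with total reads for the large one. Their medians were 0.46 and 0.54 with TMM and 0.15 and 0.22 with total reads. rps-25 (K02B2.5), with most reads of the small subunit, had 591307 reads at day 13 and 592813 reads at day 4, and rpl-38 (C06B8.8), with most of the large subunit, had 498147 reads at day 13 and 455794 reads at day 4, both called neither. rps-2 (C49H3.11) had 202139 reads at day 13 and 82868 reads at day 4, 3.04-fold higher (3.01 to 3.06), and rpl-7A (Y24D9A.4) had 62884 reads at day 13 and 26916 reads at day 4, 2.91-fold higher (2.87 to 2.95). The 10 genes with most reads at each age took 16.6% of all reads at day 13 and 15.2% at day 4, and 8 genes were in both sets. The exception among small-subunit genes was rps-8 (F42C5.8), with 21513 reads at day 13 and 67533 reads at day 4, 2.52-fold lower (2.48 to 2.56). Translation factors had 4 higher and 2 lower of 41 with TMM, and 0 higher and 4 lower with total reads. Elongation factor eef-2 (F25H5.4) had 167058 reads at day 13 and 87637 reads at day 4, 2.37-fold higher (2.36 to 2.39), a call that ended with total reads. The list of 10 genes used as constant controls in expression assays had 0 higher and 0 lower and a median of 0.44, or 0.13 with total reads. Mitochondrial ribosomal proteins had 4 higher and 7 lower of 66, or 1 higher and 9 lower with total reads, with a median of -0.03. Annotated genes overlap rpl-7A on the same strand.

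Chaperones that help proteins fold were higher in 7 and lower in 1 of 35 genes with TMM (2 higher and 1 lower with total reads), with a median of 0.53 and of 0.22 with total reads. hsp-1 (F26D10.3), the constitutive HSP70, had 61289 reads at day 13 and 33830 reads at day 4, 2.26-fold higher (2.23 to 2.29). Subunits of the CCT chaperonin, which folds actin and tubulin, were among the genes that were higher, with cct-7 (T10B5.5) at 455 reads at day 13 and 228 reads at day 4, 2.49-fold higher (2.12 to 2.93), and cct-3 (F54A3.3) at 242 reads at day 13 and 123 reads at day 4, 2.45-fold higher (1.97 to 3.07). With total reads the calls of hsp-1 and cct-3 were among those that ended. The prefoldin subunit pfd-6 (F21C3.5) had 127 reads at day 13 and 531 reads at day 4, 3.36-fold lower (2.76 to 4.11). In the list of small heat shock proteins and inducible HSP70 5 genes were higher and 2 lower of 10. sip-1 (F43D9.4), a small heat shock protein of the germline and embryo, held most of their reads, with 580281 reads at day 13 and 475515 reads at day 4, and was neither. The inducible members had few reads: hsp-70 (C12C8.1) had 10 reads at day 13 and 0 reads at day 4, F44E5.4 had 17 reads at day 13 and 3 reads at day 4 and F44E5.5 had 15 reads at day 13 and 2 reads at day 4, and the F44E5 genes are near-identical copies. Both members that were lower were small heat shock proteins, hsp-25 (C09B8.6) with 68 reads at day 13 against 232 at day 4 and hsp-17 (F52E1.7) with 15 reads at day 13 against 44 at day 4. Another annotated gene overlaps hsp-1 on the same strand, and genes on the other strand overlap cct-7, sip-1, hsp-70, hsp-25 and hsp-17.

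Protein breakdown was close to the bulk of genes. Of 32 proteasome genes 1 was higher and 5 were lower, with a median of -0.03. The core subunit pas-2 (D1054.2) had 58 reads at day 13 against 888 at day 4, 12.3-fold lower (9.42 to 16.3), and the core subunit pas-5 (F25H2.9) had 402 reads at day 13 against 1907 at day 4, 3.81-fold lower (3.42 to 4.25), while the cap subunit rpn-6.1 (F57B9.10) had 229 reads at day 13 and 126 reads at day 4, 2.26-fold higher (1.81 to 2.84), not called with total reads. Of 31 autophagy and lysosome genes 7 were higher and 3 lower with TMM, against 2 higher and 4 lower with total reads, with a median of 0.17, or -0.13 with total reads. epg-6 (Y39A1A.1) had 91 reads at day 13 and 30 reads at day 4, 3.78-fold higher (2.48 to 5.92), and rab-7 (W03C9.3), a small GTPase of late endosomes, had 104 reads at day 13 and 50 reads at day 4, 2.59-fold higher (1.83 to 3.71), while vps-34 (B0025.1), a lipid kinase that starts autophagosomes, had 100 reads at day 13 and 369 reads at day 4, 2.96-fold lower (2.37 to 3.73). The list of F-box, MATH and BTB proteins, candidate adaptors of ubiquitin ligases, was not limited to those types. Its member with most reads was the Skp1-related skr-7 (Y47D7A.1), with 24580 reads at day 13 and 16531 reads at day 4, called neither. The list had 19 higher and 9 lower of 79 with TMM. With total reads it had 9 higher and 14 lower, where all 8906 genes had 841 higher and 2245 lower. Its median was 0.15, or -0.13 with total reads. Of its F-box genes, fbxa-24 (F54D10.2) had 54 reads at day 13 and 0 reads at day 4, at least 22.4-fold higher, and fbxa-100 (F14H3.7) had 88 reads at day 13 and 8 reads at day 4, 13.7-fold higher (6.66 to 32.7). Annotated genes overlap rab-7 on the same strand and vps-34 on the other.

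Regulators known from lifespan studies were mixed. Of 36 transcription factors 5 were higher and 4 lower, or 2 higher and 6 lower with total reads. daf-16 (R13H8.1), the FOXO factor of insulin signalling, had 208 reads at day 13 and 96 reads at day 4, 2.70-fold higher (2.11 to 3.47), and skn-1 (T19E7.2), the factor of oxidative stress defence, had 361 reads at day 13 and 199 reads at day 4, 2.26-fold higher (1.90 to 2.70). The heat shock factor hsf-1, with 69 reads at day 13 against 36 at day 4, and the hypoxia factor hif-1, with 66 reads at day 13 against 41 at day 4, were also called higher. With total reads the calls of skn-1, hsf-1 and hif-1 ended. atf-7 (C07G2.2), a bZIP factor of the immune p38 pathway, had 121 reads at day 13 and 439 reads at day 4, 2.91-fold lower (2.38 to 3.59), and crh-1 (Y41C4A.4), the worm CREB, had 187 reads at day 13 and 511 reads at day 4, 2.19-fold lower (1.85 to 2.61). Of 27 genes of insulin, TOR and steroid signalling 2 were higher and 5 lower, or 0 higher and 8 lower with total reads. par-5 (M117.2), a 14-3-3 protein, had 2390 reads at day 13 and 14651 reads at day 4, 4.92-fold lower (4.71 to 5.14), and smk-1 (F41E6.4), which DAF-16 needs for lifespan extension, had 168 reads at day 13 and 684 reads at day 4, 3.27-fold lower (2.76 to 3.89). The TOR kinase let-363 (B0261.2) had 57 reads at day 13 and 29 reads at day 4, 2.45-fold higher (1.54 to 3.97), not called with total reads. Genes known to depend on DAF-16 had 2 higher and 6 lower of 18, with lea-1 (K08H10.1), a protein of the LEA family known from desiccation, at 7494 reads at day 13 and 2512 reads at day 4, 3.72-fold higher (3.55 to 3.89), and scl-20 (ZK384.2) at 196 reads at day 13 and 2286 reads at day 4, 9.36-fold lower (8.09 to 10.9). The mitochondrial superoxide dismutase sod-2 (F10D11.1) had 100 reads at day 13 and 460 reads at day 4, 3.69-fold lower (2.97 to 4.63), and the cytosolic sod-5 (ZK430.3) had 101 reads at day 13 and 51 reads at day 4, 2.47-fold higher (1.75 to 3.53), not called with total reads. Glutathione transferases, which conjugate toxic compounds, had 1 higher and 6 lower of 15, or 0 higher and 10 lower with total reads, with gst-39 (Y53F4B.33) at 29 reads at day 13 and 357 reads at day 4, 9.88-fold lower. The transferase gst-24 (F37B1.1) held most reads of this list, with 23019 reads at day 13 and 29637 reads at day 4, and was neither. The list took 0.0834% of the reads at day 13 and 0.111% at day 4. Annotated genes overlap atf-7, skn-1, crh-1, smk-1 and lea-1 on the same strand and daf-16, let-363 and sod-2 on the other.

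**Figure D4:**
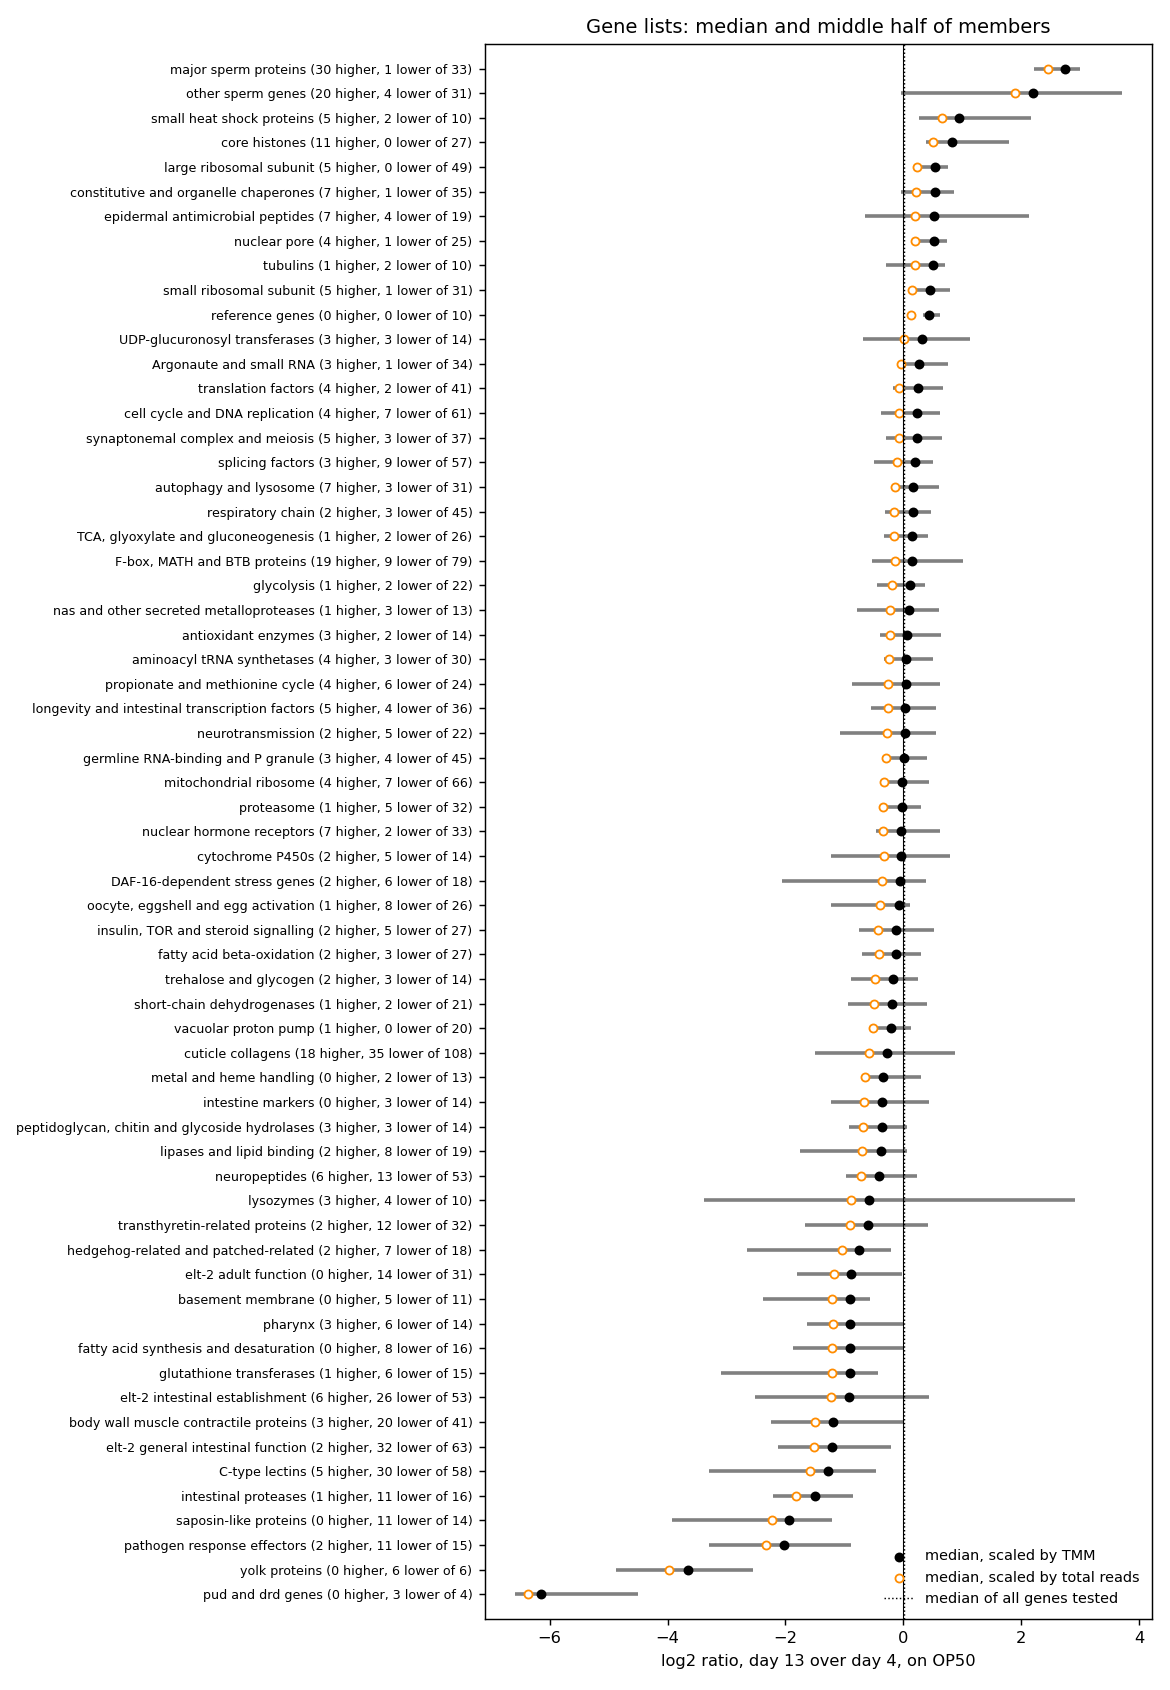
Each row is 1 of 63 gene lists, with the median log2 ratio of day 13 over day 4 on OP50 (black point, TMM scaling), the quartiles of its members (grey bar) and the median with total-read scaling (open point), and the label gives the members called higher and lower. Major sperm proteins lie at the top with a median of 2.75 and yolk proteins near the bottom at -3.66, and the open points lie to the left of the black points throughout.

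Over all 63 lists, 29 medians were above 0 and 34 below with TMM. With total reads 17 medians changed sign, and all of those had lain within 0.26 of 0 with TMM. The list of pud and drd genes, named for their response to a daf-2 mutation or to dietary restriction, had the lowest median, -6.15, or -5.27 with the gene at 0 reads set to its bound, from 4 genes, with pud-4 (F15E11.12) at 8 reads at day 13 and 641 reads at day 4, 64.3-fold lower (32.4 to 149.6), and pud-3 (F15E11.15) at 0 reads at day 13 and 96 reads at day 4, at least 25.7-fold lower. Families were also formed from the letters of the gene name alone, without chosen lists, for the 78 families with at least 10 genes. The lowest medians were those of the spp (-1.94), gst (-1.75), clec (-1.28), srlf (-0.93), twk (-0.84), cest (-0.77), fbxc (-0.72) and mig (-0.70) families, and the highest were those of msp (2.78), his (0.82), rpl (0.53), lido (0.53), kin (0.53), sup (0.52), npp (0.51) and sec (0.49). These signs were the same with total reads. The twk genes encode potassium channels, the npp genes the nuclear pore and the his genes histones.

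Replication-dependent histones have messages without a poly(A) tail in most animals, and 11 of 27 histone genes were higher at day 13 and 0 lower. his-64 (F22B3.1) had 701 reads at day 13 and 70 reads at day 4, 12.5-fold higher (9.75 to 16.2), his-1 (T10C6.14) had 108 reads at day 13 and 15 reads at day 4, 8.97-fold higher (5.20 to 16.6), and the histone with most reads, his-72 (Y49E10.6), an H3.3 variant, had 17326 reads at day 13 and 13418 reads at day 4 and was neither. Small nuclear RNAs, which carry no poly(A) tail either, were higher in 12 of 12 genes, with a median log2 ratio of 3.47. Among them sup-39 (C15F1.9), a U1 RNA, had 1627 reads at day 13 and 31 reads at day 4, 65.4-fold higher (45.9 to 96.6), and mir-1831 (C15F1.10), annotated inside sup-39 on the same strand, had 375 reads at day 13 and 5 reads at day 4, so these rows may count the same molecules. Of 4 ribosomal RNA rows 3 were higher, while rrn-3.1, which has most reads of them, had 8316 reads at day 13 against 11888 at day 4 and was neither. Of 12 small nucleolar RNAs 5 were higher and 5 lower. Pseudogenes were higher in 49 and lower in 30 of 156 cases. How much RNA without a tail passed the poly(A) selection at each age was not tested. The histone genes of a cluster are nearly identical, so reads of single histones are uncertain. Annotated genes overlap his-72 on the same strand and rrn-3.1 on the other.

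On the X chromosome 244 of 912 genes (26.8%) were lower at day 13 and 129 (14.1%) were higher, with a median of -0.25. On the autosomes the share of genes that were lower lay between 16.1% on chromosome I and 22.4% on chromosome V, and the share that were higher between 12.2% on chromosome III and 17.1% on chromosome V. Of the 14 rows of the mitochondrial genome 3 were higher and 0 lower. By level, genes with 1000 to under 10000 reads over both libraries were lower in 25.4% of 1085 cases and higher in 10.2%, while the 111 genes with 100000 reads or more had a median of 0.49 and were lower in 10.8%. The share that can be called depends on depth, so that the 4294 genes under 100 reads need larger ratios to be called.

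**Figure D5:**
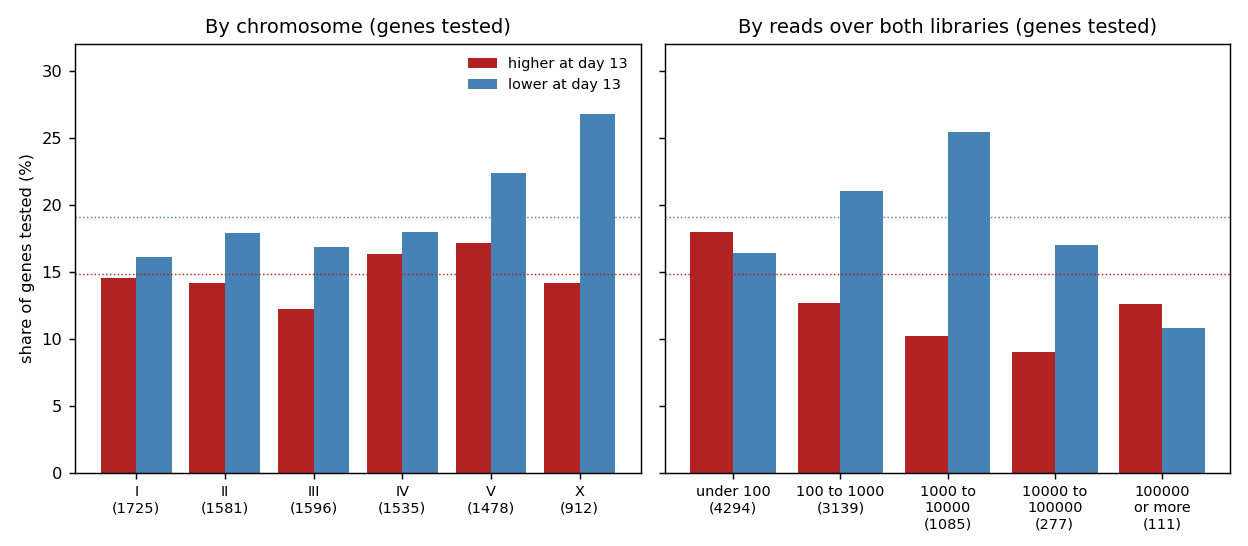
Bars give the share of tested genes (vertical axis, %) called higher (red) and lower (blue) at day 13 on OP50, by chromosome on the left and by reads over both libraries on the right, with the number of genes under each pair. Dotted lines mark the shares over all genes, 14.8% higher and 19.1% lower, and the blue bar of the X chromosome stands at 26.8%.

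The genes with the largest ratios included several that the annotation names only by their sequence. Among genes with 100 or more reads, ranked by the bound of the interval nearest to 1, the 15 highest held 3 rows of small nuclear RNAs beside mir-1831, 2 sperm chromatin genes, 2 lysozymes and cpr-2, and 6 genes with sequence names. Y38C1AA.7 had 4214 reads at day 13 and 184 reads at day 4, 28.5-fold higher (24.6 to 33.3), F17E9.5 had 2264 reads at day 13 and 121 reads at day 4, 23.3-fold higher (19.4 to 28.2), F08H9.2 had 806 reads at day 13 and 34 reads at day 4, 29.5-fold higher (21.0 to 42.9), and F36A2.10 had 789 reads at day 13 and 38 reads at day 4, 25.9-fold higher (18.7 to 36.8). Y41C4A.11 had 207 reads at day 13 and 3 reads at day 4, 86.0-fold higher, and overlaps another gene on its strand. Among the 15 lowest, beside the yolk and lysozyme genes given above, were the saposin-like genes spp-5 (T08A9.9) and spp-17 (C54G6.5). spp-5 had 154 reads at day 13 against 33244 at day 4, 173-fold lower (148 to 204). spp-17 had 266 reads at day 13 against 25355 at day 4, 76.5-fold lower (67.8 to 86.7). The 15 lowest also held members of a family of small fungus-induced peptides. fip-3 (C06E1.5) had 6 reads at day 13 against 1026 at day 4, 137-fold lower (62.8 to 375). fipr-16 (C06E1.6) had 0 reads at day 13 against 184 at day 4, at least 49.2-fold lower. F56D6.9 had 930 reads at day 13 and 113218 reads at day 4, 97.7-fold lower (91.6 to 104), and K08D8.4 had 38 reads at day 13 and 2543 reads at day 4, 53.7-fold lower (39.0 to 76.1). T28D6.3 had 1 read at day 13 and 310 reads at day 4 and Y49F6B.6 had 0 reads at day 13 and 198 reads at day 4. On PY79, F56D6.9 had 10169 reads at day 13 and 5095 at day 4. Annotated genes overlap F56D6.9 on the same strand and F36A2.10 and T28D6.3 on the other.

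Transcript lines of a gene were compared where 2 or more lines had 100 or more reads, which held for 1537 genes. In 105 of them all lines carried the same reads, and in 102 the log2 ratios of 2 lines differed by more than 1, in 21 of them by more than 2. In 1 gene a line was called higher and another lower. This was sca-1, where the line K11D9.2a.3 had 719 reads at day 13 and 394 at day 4, and K11D9.2b.2 had 53 reads at day 13 and 180 at day 4. For nurf-1, the line F26H11.2a had 395 reads at day 13 and 391 at day 4, while F26H11.2e had 19 at day 13 and 137 at day 4. Both genes were chosen after their values were seen, and genes on the other strand overlap both.

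The libraries on PY79 had 4469802 reads at day 13 and 4838114 at day 4 and share no sample with those on OP50. Of the 777 genes higher on OP50 that had 10 or more reads in a PY79 library, 265 were also higher at day 13 on PY79 and 26 were lower, and of the 990 lower on OP50, 267 were also lower on PY79 and 55 were higher. In all, 523 of 6006 genes were higher on PY79 and 634 lower. The foods were not compared by a test. Yolk proteins had medians of -3.66 on OP50 and -3.56 on PY79, saposin-like proteins of -1.94 and -2.15, and C-type lectins of -1.28 and -1.18. Major sperm proteins had medians of 2.75 on OP50 and 2.03 on PY79, where 18 of the 33 genes reached 10 reads. Body muscle genes had medians of -1.20 on OP50 and -0.60 on PY79, and cuticle collagens of -0.28 and -1.04. Large-subunit ribosomal proteins had medians of 0.54 and -0.24. All protein-coding genes tested had medians of 0.01 on OP50 and -0.18 on PY79, so the ribosomal median on PY79 was near the bulk. The PY79 medians rest only on members with 10 or more reads there. These were 29 of 58 lectins, 33 of 41 body muscle genes and 54 of 108 collagens. Of the elt-2 responsive genes with 10 or more reads in a PY79 library, 61 of 120 were lower at day 13 there and 16 were higher.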

How the data were processed

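Whole N2 worms fed OP50 were measured at day 13 and day 4 of adulthood, with 1 library each. Poly(A) RNA was sequenced at the 3′ ends, and the submitters' processing notes name Bowtie 0.12.7. The table deposited by the authors holds raw read counts for each of 24775 transcript lines. The sources used here do not give the genome build, annotation, counting tool or use of strand. The study normalized to reads mapped to a unique place. Of the lines of a gene, the one with most reads over the 4 libraries was kept. Library sizes were scaled by TMM in edgeR 4.0.16 (R 4.3.3) over the 4 libraries, with factors of 0.743 at day 13 and 0.922 at day 4, and log2 ratios used a prior count of 1. Intervals were exact at 95% (Python 3.11.15, SciPy 1.17.1). Against 0 reads, a floor of 3 reads per library was used, worth 0.141 CPM at day 13 and 0.114 CPM at day 4. No test between ages was run, since each age had 1 library. The counting steps were tested on simulated data. Chromosomes, biotypes and overlaps came from the Ensembl release 115 annotation of C. elegans, which matched 8841 of the 8906 genes. No promoter or other sequence was analysed here.

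Genes were named by a rule: the 15 genes furthest in each direction among those with 100 or more reads, the 10 genes with most reads, elt-2, and in each of 63 lists the member with most reads and up to 3 called in each direction. This gave 345 genes, of which 137 overlap another annotated gene. Marker genes and a few further members were named beside them after their values were seen. The members and the lists were chosen with earlier results of these data known. The alternatives were other scalings (total reads, DESeq2 1.42.0 size factors, TMM from the OP50 libraries, total reads without the top 3% of genes), the sum of all lines of a gene, other read minimums, a prior count of 5, and folds of 1.5 and 4. Total reads without ribosomal protein genes was added after seeing the data.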

Additional observations from a re-analysis of the deposited data

Results flagged for a closer look

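Among the genes chosen by the naming rule, 4 were called in opposite directions at day 13 on the 2 foods, with 1 library for each age and food. The difference between the foods was not tested. The log2 age ratio of acox-3, an acyl-CoA oxidase of the peroxisome, was 1.28 on OP50 and -1.26 on PY79, a difference of 2.55. Annotated genes overlap acox-3 on the same strand and on the other, so its reads are uncertain. For cnc-2, a caenacin peptide of the epidermis, it was -1.07 on OP50 and 1.12 on PY79, a difference of -2.19. For ilys-2, an invertebrate-type lysozyme, it was 5.44 on OP50 and -2.68 on PY79, a difference of 8.12. For spp-12, a saposin-like protein, it was -4.85 on OP50 and 3.07 on PY79, a difference of -7.92.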

How the results depend on the processing

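The count of genes higher at day 13, 1318, became 841 with total reads and 535 with a 4-fold minimum, and the count lower, 1700, became 1133 with 10 or more reads required at both ages and 799 with a 4-fold minimum. Under the other alternatives the counts lay between 884 and 1968 higher and between 1562 and 2245 lower. Total reads without ribosomal protein genes, chosen after seeing the data, gave 1257 higher and 1738 lower. With total reads 841 of the 1318 genes remained higher and all 1700 remained lower, and of the 345 genes named by rule 47 lost their call and 3 gained one. With DESeq2 size factors 2 lost it, with TMM from the OP50 libraries 1, with summed lines 8, and without the top 3% of genes 9 lost and 2 gained one. No direction of a named gene that was called turned. Relative to all genes, the median moved in 15 of the 63 lists with 1 read in either library as the minimum, in 13 with 10 reads in both, in 7 with summed lines and in 5 with a prior count of 5. Of these, the medians of intestine markers, glycolysis, antioxidant enzymes, UDP-glucuronosyl transferases, short-chain dehydrogenases, metal and heme handling, neurotransmission and nuclear hormone receptors crossed that of all genes under at least 1 of those settings. The cause of these shifts was not tested.

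No paired analysis was possible because each age had 1 library, and leaving out a library leaves no comparison. A gene with few reads needs a larger ratio to be called, so a gene called neither is not shown to be equal at the ages.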
